A study of Mus musculus with 11 samples.

Results

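Endothelial cells of tumour-free bone marrow lying beside metastases (non-met) were compared with the same cells of healthy bone (control) by RNA sequencing. The comparison took 8 of the 11 libraries of the study, 6 non-met and 2 control, and every gene of the count table whose Entrez GeneID could be given a symbol. Of 27179 genes in the table, 23463 had a symbol and were neither predicted nor ribosomal RNA genes, and 11948 of these passed the filter on low counts and were tested. All mice were BALB/c. The non-met cells came from mice whose bones carried 4T1.2, a mammary tumour line from BALB/c mice known to metastasise to bone, here labelled with red fluorescent protein (RFP), and marrow without RFP signal was dissected away from the infiltrated marrow. The control cells came from age-matched mice without tumour. In both groups the cells were sorted as CD31hi EMCNhi, where CD31 is the product of Pecam1 and EMCN that of Emcn. The 3 libraries of tumour-infiltrated marrow (met) entered the fit, where they add to the estimate of the spread, and are not compared here.

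Each library was made from a pool of mice, with 1 to 4 mice in a pool of the tumour-burdened group. The study gives no number of mice for a control pool. The pools limit what can be tested. Non-met libraries 1 and 5 came from pool Burdened-1, non-met 2 and 6 from Burdened-2, non-met 3 from Burdened-3 and non-met 4 from Burdened-4, while each control library was a pool of its own. The comparison therefore rests on 4 pools against 2, and p-values over libraries treat 2 libraries of 1 pool as separate samples.

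CD31hi EMCNhi vessels, also called type H, lie near the growth plate and the inner bone surface, where blood vessel growth is coupled to bone formation. Marrow endothelium lines arterioles and the wide, leaky sinusoids, holds blood stem cells through factors such as CXCL12 and KIT ligand, and lets leukocytes pass into the circulation. Tumour-free marrow beside a metastasis shares the circulation and the host of the tumour, and the comparison asks whether its endothelium differs from that of a healthy bone.

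Depth differed between the libraries. Total counts ran from 733342 to 7683451 in non-met, while control 1 had 19539761 and control 2 had 5029771, so that 3 reads, taken as the floor, stood for 0.436 to 5.43 counts per 1000000 (CPM) in non-met and for 0.147 and 0.531 CPM in control libraries. Reads of ribosomal RNA genes took 0.288 to 1.13% of the non-met and 0.178 and 0.175% of the control counts, and genes without a name took 1.86 to 13.97% and 1.03 and 1.70%. The first share counts only genes named as ribosomal RNA, so any such RNA among the genes without a name is outside it. Every non-met library was above both controls in both shares, with an exact permutation p of 0.0714 (two-sided, n = 6 and 2) for each, where the design allows no p under 0.0357. Over 15 such library measures no adjusted p was under 0.214. Reads of the keratins Krt7, Krt8, Krt18 and Krt19, epithelial genes that endothelium is not known for, divided the libraries in another way. They summed to 0.978 and 1.59 CPM in the controls and to 1.44 and 5.23 CPM in non-met 1 and 2, but to 27.0 to 89.9 CPM in non-met 3 to 6 and 10.4 to 71.8 CPM in the met libraries. Both controls thus lie in a low-keratin set with only 2 of the 6 non-met libraries, and differences were also computed within that set of 2 against 2.

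The libraries of both groups held endothelial transcripts. Pecam1 stood at 1131, 1703 and 2427 CPM (lowest, median and highest) in non-met libraries and at 1247 and 972 CPM in controls. Emcn, the sialomucin used for the gate, was at 351, 875 and 1361 CPM against 695 and 510 CPM. The groups overlapped for both, with adjusted p-values of 0.0997 and 0.283 in voomLmFit, the weighted limma test used throughout. Pecam1 was called higher with RLE scaling (0.59, adjusted p = 0.0101), with 8 libraries only (0.43, 0.0327) and without non-met 1 (0.64, 0.00209). Cdh5, the endothelial cadherin, ranged from 1026 to 1863 CPM in non-met against 1728 and 1001 CPM, and Egfl7 from 1616 to 2328 against 1773 and 1387 CPM. Of 20 general endothelial genes, 10 had a fitted difference above 0 and 10 below. Eng was the 1 called, and was lower, beside 0.452% of all genes called lower. Over summed pools voomLmFit also called Kdr, the VEGF receptor 2, lower (adjusted p = 0.0313, and 0.0621 over libraries), which overlapped at 710 to 1852 CPM against 2076 and 1161 CPM. Ptprc, which encodes the CD45 used to gate blood cells out, had no read in any non-met library and 12.5 and 0 CPM in the controls.

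Few genes were called. At an adjusted p under 0.05, voomLmFit called 76 genes, 0.636% of those tested, 22 higher in non-met (0.184%) and 54 lower (0.452%), so that 28.9% of the calls were higher. With library-size scaling in place of TMM 160 genes were called, 13.8% of them higher. This split turned around in other fits, with 21 higher and 12 lower calls over summed pools, 29 and 10 within the low-keratin set and 14 and 6 where the fit held the keratin set as a term. For 17 of the higher and 42 of the lower genes the 6 non-met libraries lay wholly on one side of both controls. Over all genes tested, the non-met libraries lay wholly above the controls for 151 (1.26%) and wholly below for 601 (5.03%). The median fitted log2 difference of all genes tested was -0.33, and the median difference of mean log2 CPM was -0.79. In other fits the median was -0.01 over summed pools, 0.14 in the edgeR quasi-likelihood test, 0.22 in DESeq2 and 0.56 without a filter. The general direction thus depended on the fit, and each gene has to be read beside the median of its own fit. Of the genes with a mean control level under 10 CPM, 49.7% had no read in 4 or more non-met libraries, and of those above 200 CPM none did.

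The calls depended on the test, and a gene said to be called with no test named was called by voomLmFit over the 11 libraries. The unweighted limma-trend test called 8 genes (0.067%), 6 of them higher, the edgeR quasi-likelihood test 14 (0.117%), 11 of them higher, and DESeq2 266 (2.23%), of which 262 were higher and 229 of these had no read in either control. Summing the libraries of each pool and group, so that 4 pools met 2, left 33 calls in voomLmFit (0.278%) and 19 (0.16%) in limma-trend, 18 of these higher. One gene, mitochondrial ND5, was called by voomLmFit, limma-trend, the quasi-likelihood test and DESeq2, 18 of the 76 were called by voomLmFit and at least 1 of the other 3, and 58 by voomLmFit alone. All 76 had the same direction in those 4 tests and in the summed pools. voomLmFit weights every value, and for 22 of the 76 called genes, against 159 of the 11872 others, 1 library carried more than 90% of the weight of its group. Of 44 called genes described below, 32 lost their call when 1 control library was left out, all 22 higher genes among them, and 29 when 1 non-met library was. Within the low-keratin set, where voomLmFit called 0.385% of genes, 17 of the 44 were called: the 9 mitochondrial genes, Insr, Lrg1, Sema3a, Cxcl12, Igfbp4, Selenop, Egr1 and Cyp4b1. The other 27 were not, with adjusted p-values in that set of 0.185 for Adamts5, 0.787 for Ctsb, 0.29 for Jun and 0.807 for both Itgb1 and Bmp4, and limma-trend called no gene there, where 915 had an unadjusted p under 0.05. Where the set was a term of the fit, 16 of the 44 were called.

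Transcripts of the mitochondrial genome were the list with the most calls. The 13 protein genes of mitochondrial DNA encode core subunits of respiratory complexes I, III, IV and V and are transcribed inside the organelle, whereas the other subunits come from nuclear genes. All 13 had fitted differences above 0, with a median of 1.48 on the log2 scale beside -0.33 for all genes, and 9 were called higher, beside 0.184% of all genes: ND1, ND2, ND4, ND4L, ND5 and ND6 of complex I, COX2 of complex IV, and ATP6 and ATP8 of complex V. The 6 non-met libraries lay wholly above both controls for 10 of the 13, beside 1.26% of all genes. Abundant genes had larger shares. Of the 71 genes over 1000 CPM in the controls, which include ND1, ND4 and ND5, 12.7% lay wholly above and 8 were called higher. At 200 to 1000 CPM, 4.58% of 742 lay wholly above and 12 were called higher. Library-size scaling put the median at 1.06 and RLE scaling at 1.33. With the pools summed, limma-trend called 11 of the 13.

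ND5 stood at 3806, 7874 and 12615 CPM in non-met and at 2595 and 2537 CPM in control libraries. The lowest non-met library was above both controls, which differed little from each other. Its log2 difference was 1.71 ± 0.26 (SE, adjusted p = 0.000706) in voomLmFit, and its mean log2 CPM was 12.91 ± 0.58 (SD, n = 6) against 11.32 ± 0.02 (SD, n = 2), a difference of 1.59 with an adjusted p of 0.00117 in limma-trend and 4.76e-07 in limma-trend over summed pools. Without control 2 the voomLmFit call was lost (adjusted p = 0.28). ND1 was at 5114, 11455 and 17151 CPM against 4334 and 3850 CPM, again without overlap. Its log2 difference was 1.77 ± 0.04 (SE, adjusted p = 1.07e-18), but 97.8% of the non-met and 99.99% of the control weight lay on 1 library each, the limma-trend adjusted p was 0.121, and the voomLmFit difference fell to 0.79 without control 2 (adjusted p = 0.887), 0.69 without control 1 (3.39e-18) and 0.74 without non-met 3 (6.34e-05). Over summed pools limma-trend gave ND1 an adjusted p of 3.26e-05.

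The other mitochondrial genes spread in the same manner. COX1, the catalytic subunit of complex IV and the most abundant of the 13 in reads, was at 25595, 45719 and 70177 CPM against 17068 and 20382 CPM, which limma-trend called (adjusted p = 0.0272) and voomLmFit did not (0.526). COX3 was at 3964, 6648 and 11481 CPM against 2546 and 2848 CPM, with the same limma-trend value and 0.088 in voomLmFit. Non-met libraries lay above both controls for each. ND4 was at 6035, 10052 and 19900 CPM against 5197 and 5878 CPM, with a voomLmFit difference of 0.76 ± 0.05 (SE, adjusted p = 1.47e-10). Its call was lost without either control, while the difference was 0.59 without control 1 and 0.77 without control 2. ATP8 was at 862, 2047 and 2740 CPM against 770 and 591 CPM and lost its call without control 1 (0.413). ND4L and ND6 overlapped with the controls in their lowest non-met library, at 694 CPM against 581 and 797 and at 370 CPM against 503 and 441, and both were lost without control 1 (0.0923 and 0.114). ATP6 and COX2, called at 0.0233 and 0.0274, were lost without control 2 (0.304 and 0.311) or any non-met library but non-met 3 (0.0553 to 0.224), and ND2, called at 0.00487, without control 2 (0.753) or non-met 4, 5 or 6 (0.15 to 0.45). The ND2 difference of 1.77 was 0.57 without control 1, 1.04 without control 2 or non-met 1 and 1.13 without non-met 5. ND4 overlaps ND4L and ATP8 overlaps ATP6 on the same strand, and ND5 overlaps ND6 on the other strand, so reads over the shared bases of the first 2 pairs cannot be given to 1 gene, and those of ND5 and ND6 cannot be told apart where counting did not use strand.

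**Figure D1:**
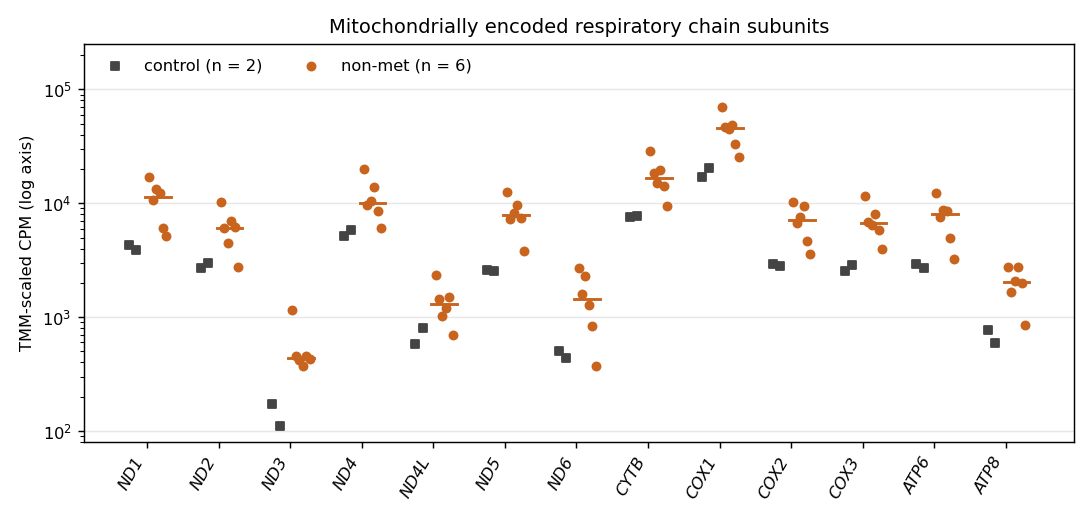
Level of the 13 mitochondrially encoded respiratory chain genes in each control (squares, n = 2) and non-met (circles, n = 6) library, in CPM scaled by TMM on a log axis, with a bar at the non-met median. For 10 genes every circle is above both squares, and ND2, ND4L and ND6 overlap.

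The nuclear-encoded subunits of the same complexes did not move with them. Of 39 tested, 17 had a fitted difference above 0, none was called, and their median was -0.24. Reads of all mitochondrial protein genes took 6.46 to 16.7% of the counts of non-met and 5.22 and 6.02% of those of control libraries, with an exact permutation p of 0.107 (two-sided, adjusted 0.229, n = 6 and 2). The lowest non-met share, in non-met 6, was only just above the higher control. Lars2, the nuclear gene for the leucyl-tRNA synthetase of mitochondria, was named after its values were seen because limma-trend and the quasi-likelihood test called it (adjusted p = 0.00117 and 1.17e-08). It was at 1784 to 14200 CPM in non-met and at 312 and 887 CPM in control libraries, while voomLmFit gave it an adjusted p of 0.291. In the non-met libraries Lars2 was highest in non-met 1 and non-met 4, the same libraries in which GeneID 100861531, an unnamed gene that was left out of the test, took the largest shares of counts, 11.4 and 9.69%, against 0.34 and 0.836% in the controls. Its part in the Lars2 reads was not tested.

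Among nuclear genes, 13 were called higher: Insr, Lrg1, Sema3a, Stc1, Adamts5, Ctsb, Lgmn, Itgb1, Vim, Gng11, Cmah, Ubd and Col4a2. Insr, the insulin receptor (GeneID 16337, GRCm38.p6 chr8:3150922-3279649), stood at 689, 1275 and 2081 CPM in non-met and at 414 and 303 CPM in control libraries, without overlap. Its log2 difference was 1.81 ± 0.21 (SE, adjusted p = 1.4e-05), and limma-trend gave 1.83 with an adjusted p of 0.03 over libraries and 0.000804 over summed pools. DESeq2 called Insr as well (adjusted p = 7.28e-05), the quasi-likelihood test did not (0.0706), and without control 1 voomLmFit gave 0.0823.

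Of these, 3 encode secreted signals. Lrg1 (GeneID 76905, chr17:56119678-56121946) encodes a secreted glycoprotein that modifies TGF-beta signalling in endothelium and promotes angiogenesis. It was at 1540, 2082 and 4773 CPM in non-met, all above the 900 and 923 CPM of the controls, with a log2 difference of 1.28 ± 0.12 (SE, adjusted p = 1.61e-07), 0.168 in limma-trend and 0.58 in voomLmFit without control 1. Sema3a, a semaphorin that guides axons and vessels and acts on bone cells, was at 548, 757 and 1263 CPM against 230 and 261 CPM. Its log2 difference was 1.59 ± 0.24 (SE, adjusted p = 0.000564), DESeq2 also called it (0.00124), limma-trend did not (0.141), and without control 1 voomLmFit gave 0.239. Stc1, the secreted stanniocalcin 1, had 127 to 325 CPM in non-met against 11.1 CPM and no read in the controls, a limma-trend adjusted p of 0.0208, a DESeq2 value of 3.56e-06 and a voomLmFit value of 0.0161. That call was lost without non-met 5 (0.0546) or control 2 (0.218), where the fitted log2 difference went from 9.98 to 4.26. Stc1, Cmah, Gng11, Ubd and the remaining mitochondrial genes lay outside the rule for naming and are given because all calls in this direction are.

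Adamts5, Ctsb and Lgmn encode proteases. Adamts5, an aggrecanase, was at 1200, 1334 and 2631 CPM in non-met against 547 and 920 CPM in control libraries, with a log2 difference of 1.40 ± 0.10 (SE, adjusted p = 2.68e-09), 0.281 in limma-trend and, without control 1, 0.66 with 0.171 in voomLmFit. Ctsb, the lysosomal protease cathepsin B, was at 1666, 2197 and 4361 CPM against 1266 and 1003 CPM, and Lgmn, the lysosomal protease legumain, at 803, 1143 and 2749 CPM against 658 and 502 CPM. No non-met library overlapped with a control for any of the 3. The log2 difference of Ctsb was 0.69 ± 0.06 (SE, adjusted p = 9.03e-08), and limma-trend called it over summed pools (0.0314). Its locus overlaps that of Fdft1, and it was lost without non-met 2 (0.102) or control 1 (0.716, with a difference of 1.07), as was Lgmn (0.0942 and 0.411).

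Of the remaining genes, Itgb1 and Vim act in adhesion and the cytoskeleton. Itgb1, the integrin beta 1 chain through which cells bind collagen, laminin and fibronectin, was at 912, 1254 and 2164 CPM in non-met against 896 and 791 CPM in control libraries, so its lowest non-met library was only just above the controls. Vim, the intermediate filament protein vimentin, was at 487, 909 and 1105 CPM against 344 and 427 CPM. The log2 differences were 0.68 ± 0.11 and 1.27 ± 0.25 (SE) with adjusted p-values of 0.00163 and 0.0142, and both were lost without non-met 2 (0.433 and 0.0634) or control 1 (0.358 and 0.53). The Itgb1 difference itself was 0.14 without non-met 2. Gng11, a G protein gamma subunit, was at 257, 781 and 1075 CPM against 215 and 213 CPM (adjusted p = 0.0142), and was lost without non-met 2 (0.0661), non-met 5 (0.0546) or control 1 (0.303). Cmah, an enzyme of sialic acid hydroxylation, was at 81.4 to 311 CPM against 22.5 and 0 CPM (adjusted p = 0.0278), and was lost without non-met 2, 3, 5 or 6 or control 2 (0.0553 to 0.244), with a fitted difference that went from 9.43 to 2.88 without control 2. Ubd, a ubiquitin-like protein of interferon and TNF responses, ranged from 304 to 1098 CPM and overlapped with the controls at 184 and 677 CPM (adjusted p = 0.00592, lost without non-met 5 at 0.0674 or control 1 at 0.8, where its difference went from 1.81 to 0.12).

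**Figure D2:**
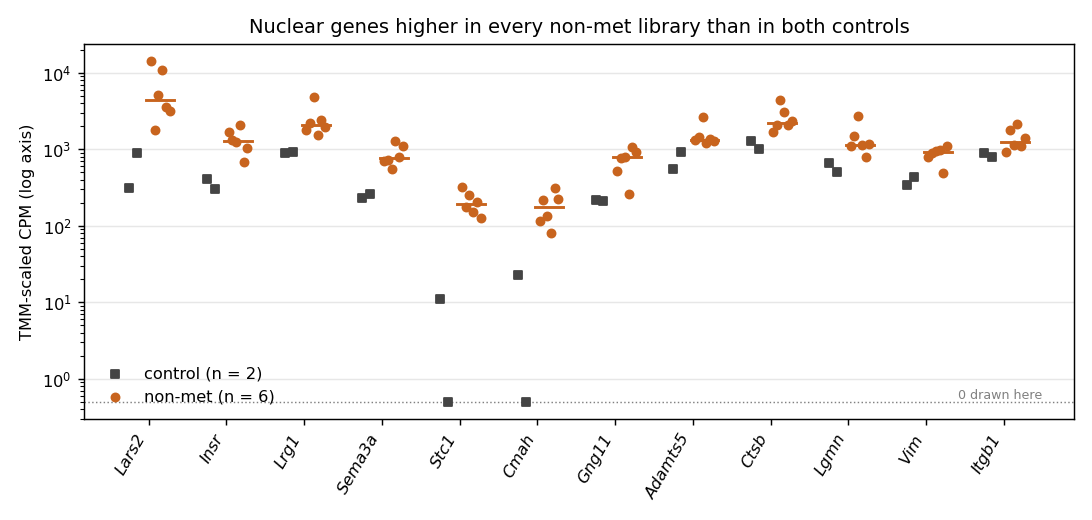
CPM scaled by TMM (log axis) of 12 nuclear genes in each control (squares, n = 2) and non-met (circles, n = 6) library, with a bar at the non-met median and values of 0 drawn at the dotted line. Every circle is above both squares, by a wide gap for Insr and Sema3a and a narrow one for Itgb1, and the 2 controls lie far apart for Stc1 and Cmah, where control 2 is at 0.

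Type IV collagen, the sheet-forming collagen of vascular basement membranes, was examined through Col4a1 and Col4a2, which lie head to head and overlap at their starts. Col4a1 was at 4226, 5485 and 8332 CPM in non-met and at 5013 and 2220 CPM in control libraries, and Col4a2 at 2888, 3614 and 5872 CPM against 3044 and 1190 CPM. For both genes the lowest non-met library lay between the controls. Col4a1 was not called (1.00, adjusted p = 0.16), but it was called over summed pools (0.27, 0.0358), without sample weights (0.000124), with library-size scaling (0.0358), without a filter (2e-13) and without non-met 1, non-met 3 or control 1 (7.73e-05, 1.61e-07 and 2.13e-12), and its difference ranged from 0.35 to 1.87 over the leave-outs. Col4a2 was called with a log2 difference of 0.31 ± 0.06 (SE, adjusted p = 0.00632) with 99.999% of the non-met weight on 1 library. Without non-met 2 its difference was -0.08 (adjusted p = 0.393), without control 2 -0.08 (0.988) and without control 1 1.28 (0.626), and without non-met 3 the call was lost as well. Of 17 basement membrane genes tested, 9 had a fitted difference above 0 and Col4a2 was the 1 called, beside 0.184% of all genes called higher.

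Among the 54 lower genes, only 10 had reads in all 6 non-met libraries: Cxcl12, Igfbp4, Selenop, Junb, Jun, Eng, Egr1, Stab2, Cyp4b1 and Pde2a. These carry levels that can be compared, while for the other 44 at least 1 non-met library had no read. In bulk samples, fewer cells of a type and less RNA per cell cannot be told apart.

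Cxcl12, the chemokine that retains blood stem cells and B cell precursors in marrow (GeneID 20315, chr6:117168535-117181368), was at 555, 941 and 2603 CPM in non-met and at 3224 and 8721 CPM in control libraries. No non-met library reached the lower control, and the 2 controls lay farther apart than the lower control and non-met 5. The log2 difference was -3.12 ± 0.22 (SE, adjusted p = 1.6e-09), and the mean log2 CPM was 10.13 ± 0.81 (SD, n = 6) against 12.37 ± 1.01 (SD, n = 2), a difference of -2.25. The quasi-likelihood test called Cxcl12 too (adjusted p = 4.14e-05), limma-trend and DESeq2 did not (0.121 and 0.281), and with the pools summed it was not called (0.286 in voomLmFit, 0.107 in limma-trend). Over libraries the voomLmFit call held in all 8 leave-outs, with a difference of -1.69 without control 2. Within the low-keratin set it was -2.37 with an adjusted p of 1.58e-15 in voomLmFit and 0.404 in limma-trend.

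Stromal cells of marrow also make Cxcl12. None of 19 tested markers of a stromal list was called, while Cfd, which stroma makes too and which is not on that list, was called lower and is given with the genes without non-met reads. Lepr, the leptin receptor that marks perivascular stroma, was at 0.622, 65.6 and 221 CPM in non-met against 246 and 979 CPM in control libraries, and Adipoq, the adipocyte and stromal hormone adiponectin, at 0, 2.12 and 67.5 CPM against 136 and 453 CPM (adjusted p = 0.45 and 0.111). Both lay wholly below the controls, as did 1 other of the 19 tested, beside 5.03% of all genes, while Pdgfrb, a pericyte receptor, reached 318 and 303 CPM in non-met 5 and 6 against 155 and 285 CPM and Col1a1 overlapped at 10.9 to 152 CPM against 57.8 and 69.7 CPM. Control 2 was the highest library for Cxcl12, Lepr and Adipoq, and non-met 5 was the highest non-met library for Cxcl12 and Lepr. The summed level of 21 osteolineage, stromal and perivascular genes was 454 to 2349 CPM in non-met and 1236 and 2737 CPM in control libraries, with 11 of 19 tested fitted lower and 8 higher, and 2 of the 21 at 0 in both controls. The highest non-met sum, in non-met 5, was above that of control 1. Vcam1, an adhesion molecule of sinusoids, stroma and marrow macrophages, was at 4.98, 135 and 302 CPM against 874 and 1267 CPM, and Lpl, the lipoprotein lipase of adipocytes and stroma, at 0.888, 28.3 and 146 CPM against 414 and 1178 CPM. Both were called by the quasi-likelihood test (adjusted p = 0.0332 and 0.0294) and not by voomLmFit (0.0901 and 0.403), and were named after their values were seen. The part of stromal RNA in the Cxcl12, Vcam1 and Lpl differences was not tested.

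Selenop, the selenium carrier selenoprotein P (GeneID 20363, chr15:3270767-3280510), had libraries close together in both groups. It was at 3292, 3691 and 4835 CPM in non-met and at 7437 and 6553 CPM in control libraries. The mean log2 CPM was 11.89 ± 0.19 (SD, n = 6) against 12.77 ± 0.13 (SD, n = 2), a difference of -0.88 that limma-trend called over libraries (adjusted p = 0.00382) and over summed pools (0.0314). In voomLmFit it was -0.77 ± 0.06 (SE, adjusted p = 2.68e-09), with nearly all weight on 1 library in each group, and the call was lost without control 1 (0.24) or control 2 (0.831). Selenop shares its locus with Ccdc152, whose reads cannot be told apart without strand. Igfbp4, which binds and restrains insulin-like growth factors, was at 1038, 1412 and 2014 CPM against 2324 and 2891 CPM. Its log2 difference of -1.33 ± 0.09 (SE, adjusted p = 1.6e-09) held in all 8 leave-outs, and limma-trend gave -0.85 with an adjusted p of 0.306.

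Sinusoidal genes were mixed. Stab2, the scavenger receptor for hyaluronan on sinusoids, was at 920, 1644 and 1844 CPM in non-met and at 3364 and 2372 CPM in control libraries, without overlap. Its log2 difference was -0.58 ± 0.11 (SE, adjusted p = 0.0134), with 0.278 in limma-trend and 0.000148 in voomLmFit over summed pools, and it was lost without non-met 1, 2, 4 or 6 (0.0658 to 0.107) and was -0.97 without non-met 5 and -1.01 without control 2. Stab1, its paralogue, overlapped at 734, 1249 and 1811 CPM against 1796 and 1294 CPM (adjusted p = 0.0532). Mrc1 and Gpm6a lay wholly below the controls and Ehd3 wholly above them, at 179 to 886 CPM against 49.3 and 135 CPM, none of them called. Of 12 sinusoidal genes tested, 9 had a fitted difference below 0 and 4 lay wholly below the controls (5.03% of all genes did). Stab2 was the 1 called, beside 0.452% of all genes called lower. Eng, the TGF-beta co-receptor endoglin, overlapped at 1164, 1260 and 2143 CPM against 2145 and 1337 CPM. Its call (-0.80 ± 0.14, SE, adjusted p = 0.00592) was lost without non-met 2 (0.156) or control 1 (-0.14, 0.623). Cyp4b1, a cytochrome P450 of fatty acid oxidation, was at 43.5, 79.6 and 141 CPM against 679 and 466 CPM. Its log2 difference was -3.04 ± 0.66 (SE, adjusted p = 0.0278), and DESeq2 also called it (0.0113). The voomLmFit call was lost without non-met 1 to 5 (0.0587 to 0.0782) or control 1, where the difference was -2.58. Pde2a, a cyclic nucleotide phosphodiesterase, overlapped at 549 to 1454 CPM against 1469 and 1126 CPM and was lost without non-met 1, 2, 4 or 5 or control 1 (0.071 to 0.349), where its difference went from -0.88 to -0.51. Cyp4b1 and Pde2a lay outside the rule for naming.

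Immediate early genes, many of which encode transcription factors, are switched on within minutes of stimulation or dissociation. Of 23 tested, 3 were called, all lower, beside 0.452% of all genes. Lower calls were more frequent among abundant genes, with 8 of 71 genes over 1000 CPM in the controls and 2 of 742 at 200 to 1000 CPM. Jun and Junb stood over 1000 CPM there and Egr1 at 200 to 1000 CPM. Jun, the core AP-1 subunit (GeneID 16476, chr4:95049036-95052222), was at 718, 1276 and 1554 CPM in non-met and at 2415 and 2202 CPM in control libraries. No library overlapped, and the log2 difference of -0.72 ± 0.12 (SE, adjusted p = 0.00194) held in all 8 leave-outs, while limma-trend gave -0.99 with an adjusted p of 0.456. Egr1, a zinc finger factor, was at 143, 234 and 458 CPM against 909 and 745 CPM, also without overlap. Its log2 difference was -1.93 ± 0.36 (SE, adjusted p = 0.0103), and the call was lost without non-met 2 (-1.54, 0.099). Junb, an AP-1 subunit that often opposes Jun, overlapped at 1412, 1613 and 2341 CPM against 2116 and 2245 CPM. Its log2 difference was -0.53 ± 0.06 (SE, adjusted p = 2.41e-05), and the call was lost without non-met 2 (-0.33, 0.0814).

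Other genes of the immediate early list were less clear. Fosb at 228 to 795 CPM against 1051 and 928 CPM and Btg2 at 48.0 to 414 CPM against 459 and 638 CPM lay wholly below the controls without a call (adjusted p = 0.0641 and 0.19). With Jun and Egr1 these made 4 of the 23, beside 5.03% of all genes. The share was 5.93% of the genes at 200 to 1000 CPM in the controls and 12.7% of those over 1000 CPM. Fos, the most abundant AP-1 transcript, overlapped at 2188, 2953 and 3238 CPM against 3788 and 2681 CPM, as did Jund, Ier2 and Zfp36. Klf2, a factor induced by blood flow, lay wholly above the controls at 346 to 909 CPM against 264 and 309 CPM (0.146). Over the 23 genes, 15 had a fitted difference below 0 and the median was -0.22, beside -0.33 for all genes. Of 16 heat-shock chaperones, which handling of cells also induces, 12 were fitted lower and none was called.

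The promoters of the 2 Jun family genes called lower are shown because Jun is known to act on its own promoter through an AP-1-like element. They are the 250 bases before each start site, from RefSeq on GRCm38.p6. Jun lies on the minus strand at chr4:95052223-95052472 and Junb on the minus strand at chr8:84978749-84978998, and capitals mark the AP-1-like element TGACATCA and the CCAAT box. Both are written 5′ to 3′ along the gene.
Jun: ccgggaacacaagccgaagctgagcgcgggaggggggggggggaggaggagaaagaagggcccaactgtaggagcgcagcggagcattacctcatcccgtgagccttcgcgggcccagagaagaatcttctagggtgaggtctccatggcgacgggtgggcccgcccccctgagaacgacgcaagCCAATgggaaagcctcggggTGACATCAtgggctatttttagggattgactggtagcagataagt
Junb: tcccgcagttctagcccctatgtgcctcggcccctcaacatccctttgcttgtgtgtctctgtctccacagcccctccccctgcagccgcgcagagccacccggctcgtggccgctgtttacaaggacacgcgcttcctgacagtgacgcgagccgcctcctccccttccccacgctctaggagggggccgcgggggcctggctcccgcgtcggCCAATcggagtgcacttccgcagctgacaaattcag
The element TGACATCA was found in Jun from -45 to -38, counted from the start site, and CCAAT from -65 to -61, while Junb held CCAAT from -36 to -32. Neither window held TGACTCA or TGACGTCA. Both strands were searched. Over 32851 promoter windows of the same length, 2.93% held TGACATCA, 33.8% CCAAT, 4.46% TGACTCA and 1.55% TGACGTCA. These are matches of letters, and binding was not measured.

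Most lower calls were genes that non-met libraries hardly held. For 34 of the 54, at least 4 non-met libraries had no read, as was the case for 2283 of all genes tested, and their fitted fold changes depend on the prior count added to each value. Bmp4, a bone morphogenetic protein, had 1717 and 409 reads in the controls (83.9 and 72.4 CPM) against 7 reads, all in non-met 1, with an adjusted p of 0.00138 that held in all leave-outs and was 0.197 in limma-trend.

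Of these genes, 4 others named by rank had few reads in non-met libraries. Lox, the lysyl oxidase that crosslinks collagen and elastin, was at 53.2 and 250 CPM in the controls, 21.1 CPM in non-met 1 and 0 in the others (adjusted p = 0.0117, and 0.0553 without non-met 6). Its relative Loxl1 was at 83.2 and 108 CPM against 19.3 CPM at most (0.012, and 0.053 to 0.0658 without non-met 4, 5 or 6). Gas1, a Hedgehog co-receptor, was at 105 and 54.3 CPM against 38.0 CPM in non-met 3 alone (0.0216, and 0.0563 to 0.134 without non-met 4, 5, 6 or control 1). E2f6, a repressor of the E2F family, was at 39.1 and 67.2 CPM against 1.81 CPM at most (0.016, and 0.0546 and 0.0553 without non-met 5 or 6). Limma-trend called none of these 4, and the lowest of their adjusted p-values in it was 0.494.

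The tip cell marker Esm1 was at 124 and 214 CPM in the controls and at 0, 13.5 and 93.3 CPM in non-met libraries, 3 of which had no read (adjusted p = 0.0415, and 0.0935 to 0.136 without non-met 2, 4 or 6). Cfd, Svep1, Gpc6, Il34 and Tnfrsf25, named after their values were seen, had no read in any non-met library. Set against a floor of 3 reads in each library, Cfd was at least 20-fold lower, Svep1 at least 25.2-fold, Gpc6 at least 20.5-fold, Il34 at least 26.2-fold and Tnfrsf25 at least 22.6-fold. These bounds rest more on control 2, with 53.4 to 90.6 CPM of the 5 genes, than on control 1, where Il34 was lowest at 10.8 CPM. Without control 2 they were 12.4-, 14.5-, 13.1-, 5.59- and 9.41-fold in the same order. Cfd encodes the complement factor adipsin, made by adipocytes and stroma, and Il34 a ligand of the CSF1 receptor. All 5 were lost without non-met 2, 3, 5 or 6 (adjusted p = 0.0524 to 0.0909), and each without others too, up to 0.222 for Il34 without control 2.

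**Figure D3:**
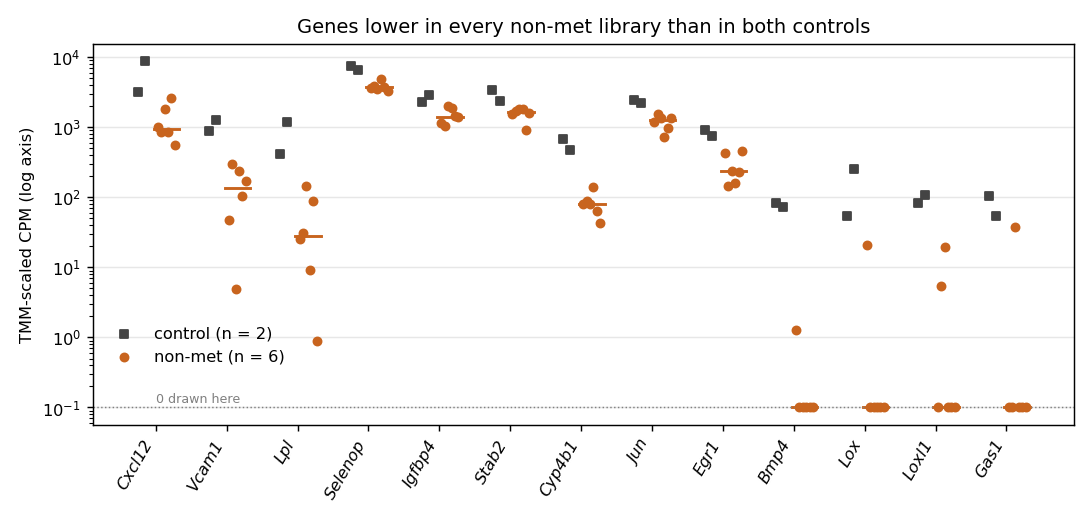
CPM scaled by TMM (log axis) of 13 lower genes in each control (squares, n = 2) and non-met (circles, n = 6) library, with a bar at the non-met median and values of 0 drawn at the dotted line. The gap between the lower control and the highest non-met library is narrow for Cxcl12, Selenop, Igfbp4 and Stab2, wider for Vcam1, Lpl and Cyp4b1, and Bmp4, Lox, Loxl1 and Gas1 are at 0 in at least 4 non-met libraries.

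Lists of genes were described by their counts beside those of all genes, of which 5265 had a fitted difference above 0 and 6683 below. This direction went with level. Of the genes with a mean control level under 10 CPM, 2651 of 3020 were fitted higher. At 10 to 50 CPM it was 1445 of 4593, at 50 to 200 CPM 857 of 3522, and at 200 to 1000 CPM 283 of 742. The counts of a list therefore have to be read beside the level of its members. Notch signalling, which shapes type H vessels, had 17 of 19 genes fitted lower and none called, with a median of -1.11. Its members were mostly low. Notch4 ranged from 88.0 to 806 CPM against 764 and 347 CPM, and the feedback inhibitor Nrarp, at 0.53 to 64.7 CPM against 159 and 95.4 CPM, was the 1 member lying wholly below the controls, beside 5.03% of all genes. TGF-beta and BMP signalling had 21 of 26 genes fitted lower with a median of -0.97. Of the 26, 4 were called, Lrg1 higher, and Eng, Bmp4 and Tgfb3 lower, beside 0.184% of all genes called higher and 0.452% lower. Tgfb3, outside the rule for naming, was at 22.6 and 58.7 CPM in controls and at 0.933 CPM or less in non-met libraries (adjusted p = 0.0378), and its call was lost in each of the 8 leave-outs (0.062 to 0.0901). Angiocrine factors had 16 of 25 fitted lower, Sema3a called higher and Cxcl12 and Bmp4 lower, beside the same shares of all genes. Arterial genes had 10 of 15 fitted higher and 1 call, Cxcl12, which was lower. Tip cell genes had 13 of 22 fitted higher, with Col4a2 and Itgb1 called higher and Esm1 lower. The shares of all genes called, 0.184% higher and 0.452% lower, stand beside these counts too.

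No gene was called by voomLmFit in the lists for interferon-stimulated genes (19 of 34 fitted higher), MHC class I presentation (7 of 16), inflammatory chemokines and leukocyte adhesion (7 of 16), hypoxia and glycolysis (11 of 25), cell cycle (16 of 21), lipid uptake (7 of 18), coagulation (11 of 17) or cytosolic ribosomal proteins (34 of 44). Other tests called 6 of these genes. The quasi-likelihood test called Vcam1 and Lpl lower, and DESeq2 called Ifit1 and Plk1 higher, neither of which had a read in a control. With voomLmFit over summed pools the fatty acid carrier Fabp4 was lower (adjusted p = 0.0107) and the elongation factor Eef1a1 higher (1.01e-05). Over libraries both overlapped, Fabp4 at 2123, 4096 and 6016 CPM against 4235 and 6542 CPM and Eef1a1 at 2707, 3409 and 5555 CPM against 2643 and 3100 CPM. Among ribosomal and elongation factor genes 7 of 44 lay wholly above the controls, beside 1.26% of all genes, and the median was 0.46. Eef1b2, an elongation factor subunit, was at 326 to 1022 CPM in non-met and 267 and 253 CPM in control libraries. Of the interferon-inducible chemokines, Cxcl10 was at 0, 0.401 and 12.7 CPM against 9.92 and 12.9 CPM, and Cxcl11 had 2 reads in 1 non-met library, 1 read in another and none in the controls, with adjusted p-values of 0.396 and 0.453. Their relative Cxcl9, at 74.2 to 346 CPM against 495 and 310 CPM, overlapped too. Cxcl10 and Cxcl11 lie within Art3 and Eng overlaps Fpgs, with the same limit on reads counted without strand.

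**Figure D4:**
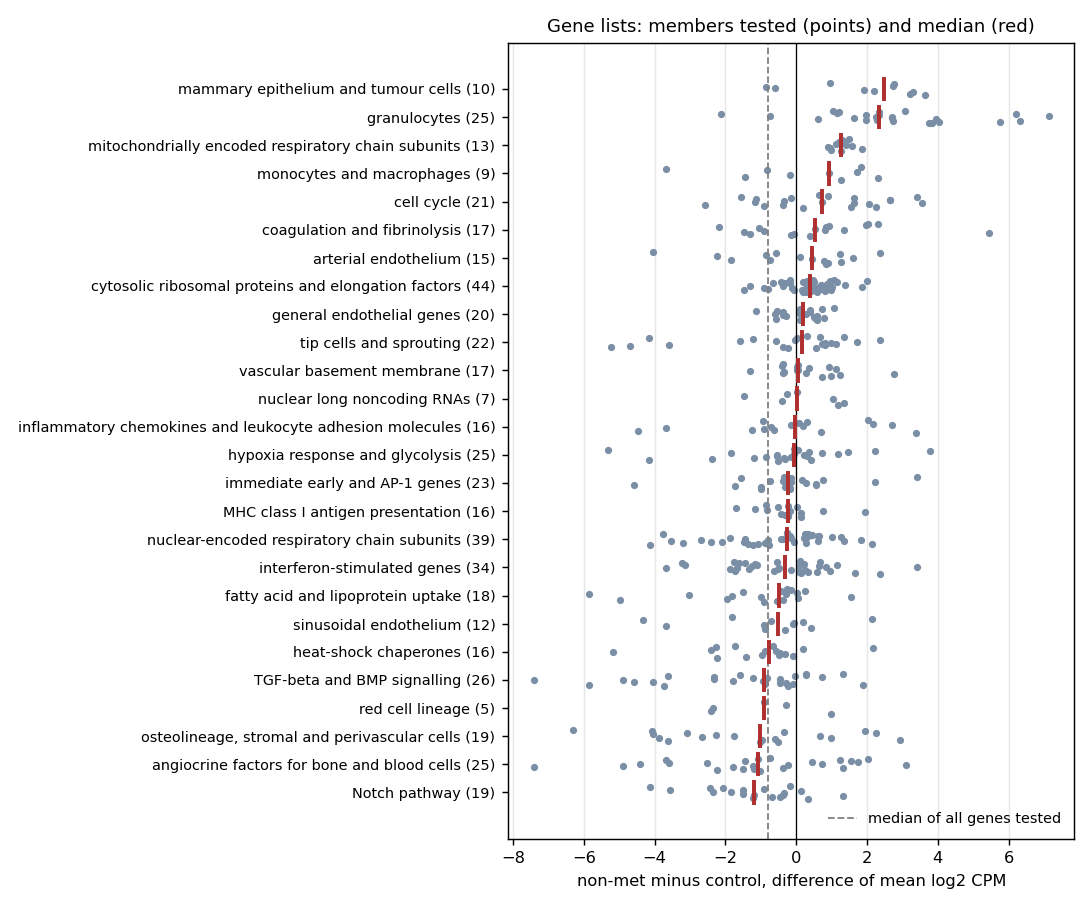
Difference of mean log2 CPM, non-met minus control, for each tested member (points) of the lists with at least 5 members tested, with the list's median in red and the median of all 11948 genes as a dashed line at -0.79. The mitochondrially encoded genes form the tightest group above 0, granulocyte and epithelial markers stand highest, and the Notch, angiocrine and stromal lists lie lowest.

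Granulocyte markers varied by pool, and none was called by voomLmFit over libraries. S100a8, a calcium-binding protein abundant in neutrophils (GeneID 20201, chr3:90669071-90670034), was at 66.9, 567 and 952 CPM in non-met and at 6.55 and 90.1 CPM in control libraries. The lowest non-met value lay between the controls, and the log2 difference of 4.14 ± 1.11 (SE) had an adjusted p of 0.074 in voomLmFit and 0.936 in limma-trend. It was 2.15 without control 1 and 5.93 without control 2, and was called without sample weights (0.0306) and without non-met 3 (0.0368). Within the low-keratin set of 2 against 2 libraries it was 5.50 with an adjusted p of 8.52e-11 in voomLmFit and 0.404 in limma-trend, and over summed pools the values were 0.17 and 0.986. S100a9, its partner, was at 126 to 2523 CPM against 14.6 and 214 CPM and was called by the quasi-likelihood test (0.0237) and by voomLmFit over summed pools (0.0358).

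The granulocyte list was also summed by pool. The 28 genes of the list summed to 4695 and 4260 CPM in the libraries of Burdened-1, to 3120 and 6711 CPM in those of Burdened-2, to 618 CPM in Burdened-3 and 834 CPM in Burdened-4, against 308 and 584 CPM in the controls (exact permutation p = 0.143, two-sided, adjusted 0.268, n = 6 and 2). Retnlg was at 0.311 to 307 CPM with no read in either control, and did not follow these sums, with 132 CPM in non-met 4 against 95.5 CPM in non-met 2 and 44.0 CPM in non-met 5. Ltf was at 0.311 to 260 CPM with no read in either control, and Camp was at 45.2 to 163 CPM against 6.99 and 0 CPM. These 3 of 25 lay wholly above the controls, beside 1.26% of all genes, without being called by voomLmFit, Retnlg and Ltf through 1 read each in non-met 3 and Ltf through 2 in non-met 4, under the floor of 3 reads. DESeq2 called Retnlg, Ltf and 4 others of the list, all 6 without a read in either control. In all, 24 of 25 tested granulocyte genes had a fitted difference above 0, with a median of 4.44, while the median difference of mean log2 CPM was 2.35. Among all genes with a mean control level under 10 CPM, 2651 of 3020 were fitted higher. Of the 28, 13 were at 0 in both controls, the neutrophil surface marker Ly6g had 2 reads over the 6 non-met libraries, and Ptprc had none. Whether granulocyte RNA entered the S100a8 and S100a9 values was not tested.

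Sums over markers of other cell types went in both directions. The 15 monocyte and macrophage genes summed to 215, 319 and 712 CPM in non-met and to 934 and 1364 CPM in control libraries, with every non-met library below both controls (exact permutation p = 0.0357, the smallest this design allows, two-sided, adjusted 0.214, n = 6 and 2). Without Vcam1, which is also on other lists, they summed to 167, 193 and 410 CPM in non-met and to 60.3 to 97.1 CPM in control libraries, the reverse direction. B cell genes summed to 0 to 427 CPM against 17.0 to 30.0 CPM, T and NK cell genes to 0 to 123 CPM against 0 to 21.9 CPM, red cell genes to 85.0 to 270 CPM against 143 to 253 CPM, and megakaryocyte genes to 0 to 57.8 CPM against 0 to 31.3 CPM. No gene of these lists was called by voomLmFit, while the quasi-likelihood test called Vcam1 lower and DESeq2 called Adgre1 of the macrophages and Pf4 of the megakaryocytes higher, both without a read in either control. Mammary epithelial and tumour genes summed to 35.0, 161 and 694 CPM against 17.6 and 88.3 CPM, with 8 of 10 tested fitted higher and none called.

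**Figure D5:**
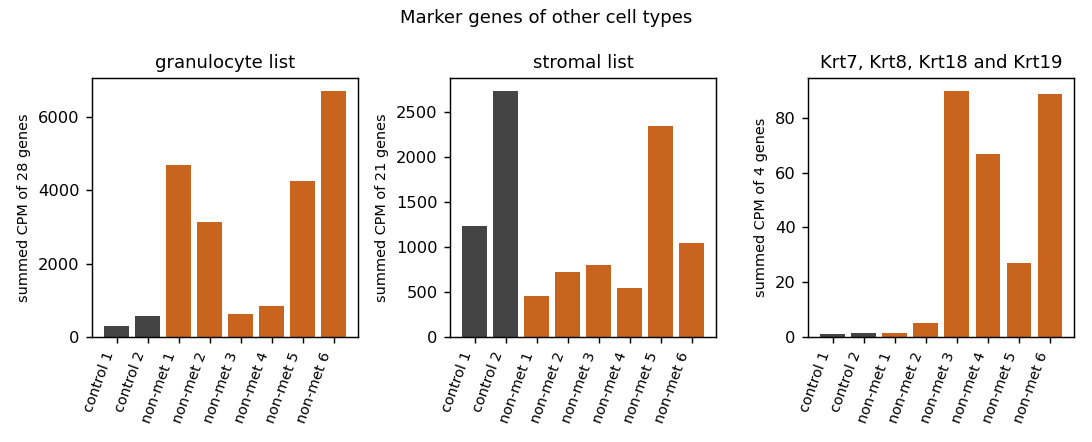
Summed CPM per library of 28 granulocyte genes, 21 stromal genes and the keratins Krt7, Krt8, Krt18 and Krt19, with controls in grey and non-met libraries in orange. The granulocyte sum is high in non-met 1, 2, 5 and 6 (2 pools), the stromal sum is highest in control 2 and non-met 5, and keratin reads are confined among these 8 libraries to non-met 3 to 6 apart from traces of at most 5.23 CPM.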

How the data were processed

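Total RNA of sorted CD31hi EMCNhi endothelial cells, from which CD45+, Ter-119+ and dead cells had been gated out, was amplified with the SMART-Seq v4 low-input kit, and paired 75-base reads were aligned to mm10 with Rsubread. Reads over each Entrez gene were counted by the authors with featureCounts and its built-in annotation, and these raw counts are what was deposited. Whether strand was used is not given in the sources used here. The authors had removed 1 poorly aligned sample. The table of the series equalled the 11 single-library tables. Symbols came from RefSeq GRCm38.p6 (25275 genes) and GENCODE M21 (18), and 1886 unnamed, 36 ribosomal RNA and 1794 predicted genes, 1.94 to 15.75% of the counts of a library, were left out.

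Counts were filtered with filterByExpr and fitted with voomLmFit (edgeR 4.0.16, limma 3.58.1, R 4.3.3) with empirical sample weights (0.43 to 1.96) over 11 libraries in 3 groups, as in the study's methods, which name no scaling, and TMM was used here, and p-values were adjusted by Benjamini-Hochberg over all genes tested at 0.05. The alternatives were limma-trend on log2 CPM with a prior count of 2, the edgeR quasi-likelihood test, DESeq2 1.42.0, other scalings and filters, summed pools, blocks and leave-outs. The scripts were tested on simulated data. SDs are of log2 CPM. Single values per library were compared by an exact two-sided permutation test, in which 6 against 2 libraries can be divided in 28 ways. Floors cover counting error only, since reads of amplified RNA without molecular identifiers are not independent molecules. The SEs of voomLmFit and the SDs come from the spread between libraries.

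Named genes were Pecam1, Emcn, Col4a1, Col4a2, Cxcl10, Cxcl11 and S100a8, up to 12 higher and 12 lower called genes, ranked by adjusted p, among those without overlap that changed alike, at an unadjusted p under 0.05, in limma-trend and summed pools, and up to 3 called genes of each list, of which 1 is not reported here. The genes, lists and library sets were chosen with earlier results of these data known, and limma-trend on summed pools or within sets and the leaving out of non-met 4 and 6 together were chosen after seeing the data.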

Additional observations from a re-analysis of the deposited data

Results flagged for a closer look

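Among 72 values tested over the 6 non-met libraries, 8 had 1 library far from the other 5 by Dixon's test at the 95% level, where chance flags about 1 in 20 groups. The log2 CPM of Adamts5 was 11.36 in non-met 3 and 10.23 to 10.48 in the others, that of Stab2 was 9.846 in non-met 5 and 10.58 to 10.85 in the others, and that of the mitochondrial gene ND3 was 10.16 in non-met 1 and 8.543 to 8.829 in the others. Bmp4 (0.6949) and Lox (4.422) had reads in non-met 1 alone, and Gas1 (5.26) in non-met 3 alone, each beside -1.485, the log2 CPM of a library without reads. With the other 5 libraries tied, a flag was certain for these genes, and the rate of 1 in 20 does not apply to them. The summed stromal markers were at 2349 CPM in non-met 5 and at 454.3 to 1043 CPM in the others. The summed epithelial markers were at 693.9 CPM in non-met 6 and at 35.0 to 236.9 CPM in the others.

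Reads outside the tested genes were also above the level of the controls. Genes without a name took up to 13.97% of counts, in non-met 1, and ribosomal RNA genes up to 1.133%, in the same library.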

How the results depend on the processing

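The 76 calls became 14 with the quasi-likelihood test, 266 with DESeq2, 8 with limma-trend, 140 without sample weights, 160 with library-size scaling, 184 without a filter, 35 with a mean of at least 5 CPM, 33 with summed pools, 20 with a term for the library sets and 39 within the set of the controls. Choices added after seeing the data gave 35 calls without non-met 4 and 6, 19 with limma-trend on summed pools, 1 with limma-trend and the set term, and none with limma-trend within the set of the controls, where 915 genes had an unadjusted p under 0.05. Leaving out 1 library gave 33 (without non-met 5) to 228 calls (without control 2), and without non-met 2, 4 and 6 there were 42, 44 and 42. RLE scaling (83), predicted and ribosomal RNA genes kept (73), the pool as a random block (94) and 8 libraries only (92) stayed within 1.5 times. The median of all genes was -0.33 with TMM, -0.54 with library-size and -0.25 with RLE scaling. It was -0.01 with summed pools, 0.14 with the quasi-likelihood test, 0.22 with DESeq2, 0.20 without control 1 and 0.56 without a filter. The cause was not tested.

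Replicate numbers are shared by non-met 1 and control 1 and by non-met 2 and control 2, which are different animals. The deviations of the same-numbered libraries correlated at 0.013 and -0.001 over 11948 genes. Non-met libraries of 1 pool correlated at -0.23 and -0.188, within the -0.152 to -0.241 of different pools. The measure thus did not show a known link and cannot exclude one. With the replicate block 11 genes were called, 10 of them higher.

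Col4a2 turned below 0 with library-size scaling (-0.046), without non-met 2 (-0.075) and without control 2 (-0.077), and ranged from -0.077 to 1.28 over the leave-outs. No other of the 44 called genes described changed direction over 27 alternatives, 14 had a difference that moved by over 1.5 times without 1 library, while 518 of their 1188 values no longer passed the threshold. Of these 44, the genes that voomLmFit called in each of 8 leave-outs were Igfbp4, Cxcl12, Bmp4 and Jun. With 733342 counts in non-met 4, levels under its floor of 5.43 CPM were not detectable in that library.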

Other observations

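Several vascular genes that voomLmFit did not call were separated or called by other tests, and were chosen after their values were seen. Col18a1, a basement membrane collagen whose fragment is endostatin, was at 210, 607 and 877 CPM in non-met and at 167 and 32.0 CPM in control libraries, with adjusted p-values of 0.154 in voomLmFit, 0.0486 in the quasi-likelihood test, 0.000316 in DESeq2 and 0.0314 in limma-trend on summed pools. Slco2a1, a prostaglandin transporter, was at 353, 623 and 1466 CPM against 245 and 131 CPM, with 0.0756 in voomLmFit, 0.00184 in DESeq2 and 0.00623 in limma-trend on summed pools. Neither gene had a non-met library within the range of the controls. Igfbp3, which carries insulin-like growth factors, was at 142, 682 and 1857 CPM against 196 and 313 CPM and overlapped only through non-met 6, with 0.0436 in limma-trend on summed pools.

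Endothelial surface genes without a call in voomLmFit included Mcam, the adhesion molecule CD146, at 435, 636 and 1132 CPM against 303 and 134 CPM (adjusted p = 0.183, and 0.00282 in DESeq2), and Ly6a, also called Sca-1 and found on arterial endothelium, at 228, 321 and 509 CPM against 114 CPM or less (0.124, and 0.0354 in DESeq2). Both lay wholly above the controls. Ackr1, a chemokine-binding receptor of venous endothelium, lay wholly below them at 69.3, 107 and 238 CPM against 286 and 281 CPM (0.3).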
